A study of Mus musculus with 18 samples.

Results

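The genes described here are those that KEGG places in its cell cycle or DNA replication pathways, as listed beside each gene in the deposited table. Of the 55450 genes in that table, 141 belonged to the set, 113 from the cell cycle pathway and 35 from the DNA replication pathway, with 7 in both. Smad and Tgfb family genes and Ccnd2, Cdk6, Cdkn1a and Mdm2, 10 genes in all, were left out of it. The set was defined by pathway and gene name, with no threshold on a measured value. It was chosen with earlier results of these data known.

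The cells were mouse embryonic fibroblasts (MEF), a connective tissue cell grown from the embryo, obtained from a cell collection and transfected with a plasmid. The plasmid was the empty pcDNA3 vector, Col1a1-miR-29b, in which a collagen 1a1 promoter drives miR-29b, or CMV-miR-29b, in which the strong viral CMV promoter drives the same microRNA. Each vector was sequenced without treatment and with TGF-β, given from 6 h after transfection for 24 h at 20 ng/ml, which made 6 groups of 3 libraries. All groups, controls included, went through the lipid transfection, and the 2 miR-29b plasmids also carry fluorescent reporters that the empty vector lacks. Expression was transient, so each library mixes transfected and untransfected cells. In such bulk RNA, fewer dividing cells and less RNA of a gene per cell cannot be told apart.

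The cell division cycle is driven by cyclins and cyclin-dependent kinases (CDKs). Cyclin D with Cdk4 and then cyclin E with Cdk2 phosphorylate the retinoblastoma proteins, which frees E2F factors to turn on the genes of DNA synthesis. CDK inhibitors of the INK4 and Cip/Kip families hold this step back, and TGF-β is known in many epithelial cells for raising the inhibitor Cdkn2b and lowering Myc. Fibroblasts respond to TGF-β with collagen synthesis, and their growth response varies with the culture.

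Total counts per library ran from 65898017 to 80332633. Of 10 fibroblast genes examined, Col1a1, Col1a2 and Vim were the highest, with median CPM (counts scaled to a common library size) of 1385, 858 and 549. Col3a1 and S100a4 were at 216 and 114, and Pdgfrb, Pdgfra and Dcn at 16.7, 9.58 and 3.24. The other 2, the surface gene Thy1 and Fap, had medians under 1, at 0 and 0.666. Of the epithelial, endothelial, blood, muscle and pluripotency markers examined, 18 of 24 had a median CPM under 1, the largest being Des at 16.2. Reads on Mir29b-1 numbered 110 to 309 per library with CMV-miR-29b alone and 203 to 293 with TGF-β, against 0 to 1 with Col1a1-miR-29b alone, 2 to 6 with TGF-β, and 0 in all empty vector libraries. These are fragments of the precursor in poly(A) RNA and not mature miR-29b. The empty vector library with TGF-β labelled d stood between the other empty vector libraries with TGF-β and the Col1a1-miR-29b libraries in several members. Counts of calls without it are given below, and some of the members that passed only then are named.

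Mature miR-29b carries its targeting seed in bases 2 to 8. It is given here with the seed in capitals, from RefSeq (Mir29b-1, GRCm38.p6, chr6:31063025-31063047, minus strand), together with windows of the 3′ untranslated regions of 6 members in which the 7 bases complementary to the seed are in capitals (GENCODE M21, GRCm38). Those shown are the 5 that edgeR called between Col1a1-miR-29b and empty vector, and Ccna2, called by DESeq2 between CMV-miR-29b and empty vector.
miR-29b-3p: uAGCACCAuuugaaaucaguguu
Ccna2, match at chr3:36566021-36566027, minus strand: ttaattggttaacatTGGTGCTgccaactg
Stag2, match at chrX:42276176-42276182, plus strand: tatatatatataaatTGGTGCTgattttat
Anapc1, match at chr2:128612783-128612789, minus strand: taagacagataacgcTGGTGCTgtccacgt
Prkdc, match at chr16:15842079-15842085, plus strand: aggaaatctactttaTGGTGCTggcgagat
Hdac1, match at chr4:129516476-129516482, minus strand: cagagcacagggcagTGGTGCTaggagggc
Pole3, match at chr4:62522886-62522892, minus strand: ttacggtaagaggaaTGGTGCTcaggaatg

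A match to TGGTGCT was found in 16 members, 11.9% of those tested with an annotated 3′ untranslated region, against 13.3% of all tested genes. Median changes were near 0 with and without a match. In Col1a1-miR-29b against empty vector, their median log2 fold change was -0.012 without TGF-β and -0.004 with it, beside -0.003 and 0.005 for the 120 members without a match. With CMV-miR-29b the medians were -0.002 and -0.046, beside 0.005 and -0.026. Members with a match were called in both directions: Stag2, Prkdc and Anapc1 were lower and Pole3 higher with Col1a1-miR-29b in both treatment states, and Hdac1 was higher with TGF-β. A seed match is a description of the sequence and not a shown target site.

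Promoters of E2F-responsive genes often hold a short GC-rich motif. The search took TTTCCCGC, TTTCGCGC, TTTGGCGC and TTTGCCGC on both strands, from 250 bases before to 50 bases after the first RefSeq start site listed for each gene, and overlapping matches were kept. Of the 115 members matched to a promoter, 25 held one (21.7%), against 2.3% of all 27025 promoters of the same length. The CCAAT box was in 52.2% of member promoters and 37.9% of all, and the CHR element of late cell cycle genes (TTTGAA or TTCGAA, both strands) in 23.5% and 19.4%. By phase, E2F motifs were in 10 of 23 promoters of members that peak at G1/S, and CHR elements in 9 of 12 promoters of members that peak at G2/M. Members that differed were found with and without it: with Col1a1-miR-29b against empty vector under TGF-β, 1 of 25 members with an E2F motif was higher and 4 were lower, beside 10 and 12 of 86 without one. The promoters of Cdc25a, the 1 that was higher, and of Pola1 and Rbl1, lower in both treatment states, are shown with the motif in capitals (RefSeq, GRCm38.p6).
Cdc25a, chr9:109875329-109875628, plus strand: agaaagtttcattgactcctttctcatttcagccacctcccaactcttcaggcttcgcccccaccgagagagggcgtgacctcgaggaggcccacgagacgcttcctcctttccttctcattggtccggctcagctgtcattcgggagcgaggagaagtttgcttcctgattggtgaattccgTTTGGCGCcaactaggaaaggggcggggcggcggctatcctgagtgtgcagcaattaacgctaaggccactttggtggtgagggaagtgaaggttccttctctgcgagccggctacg
Pola1, chrX:93632106-93632405, minus strand: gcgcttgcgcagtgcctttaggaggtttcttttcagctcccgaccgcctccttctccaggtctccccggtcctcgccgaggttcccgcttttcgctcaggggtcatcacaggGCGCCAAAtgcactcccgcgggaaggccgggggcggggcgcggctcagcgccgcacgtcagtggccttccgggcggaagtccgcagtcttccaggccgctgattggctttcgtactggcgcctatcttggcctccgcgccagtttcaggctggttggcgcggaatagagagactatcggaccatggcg
Rbl1, chr2:157204485-157204784, minus strand: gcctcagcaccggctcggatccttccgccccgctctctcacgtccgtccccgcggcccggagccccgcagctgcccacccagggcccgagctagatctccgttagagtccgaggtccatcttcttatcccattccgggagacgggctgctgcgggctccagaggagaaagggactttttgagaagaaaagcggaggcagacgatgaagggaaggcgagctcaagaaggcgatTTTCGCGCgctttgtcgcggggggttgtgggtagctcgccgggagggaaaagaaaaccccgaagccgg

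Of the 141 members, 136 had enough counts to be tested. The 5 others were Ccna1, Cdkn1c, Ccnb3, Smc1b and Wee2, mostly genes of germ cells and meiosis apart from the inhibitor Cdkn1c, with at most 12 counts in any library and 0 in every library for Ccna1 and Cdkn1c. On the length-scaled FPKM level, averaged over the 16 libraries with a usable value, the tested members had a median of 18.2. The highest was Ywhae, a 14-3-3 adaptor protein, at 228 FPKM, followed by the replication clamp Pcna at 162 and the cohesin subunit Rad21 at 138. The lowest were the phosphatase Cdc14a at 0.898 FPKM and the E2F partner Tfdp2 at 1.67. The 14-3-3 proteins had a median of 69.9 FPKM and the origin licensing genes 32.2, while the Rb and E2F regulators had 9.07. Members were steady between replicates: the coefficient of variation within groups had a median of 5.35%, and it was under 10% in 115 of the 136. They were also close between groups, since the highest group mean was a median of 1.17 times the lowest, and it exceeded 1.5 times in 11 members.

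TGF-β in empty vector cells changed few of these genes. By edgeR's quasi-likelihood test across 21161 genes, at an adjusted p under 0.05, 5 of 136 members rose and 2 fell, where 3.88% of all genes rose and 2.01% fell. The median member changed by 0.012 on the log2 scale and the median gene by 0.002. Of genes averaging 50 CPM or more, 10.5% changed, and of the 101 members at that level 3.96% did. Scaled by total counts, 3 members rose and 3 fell, and once offsets took out length and GC trends 5 rose and 6 fell.

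The member with the largest change was Gadd45g, a stress-induced partner of p38 kinase signalling and of the Cdk1 complex. Its CPM was 26.9, 21.4 and 25.7 in empty vector libraries and 48.9, 46.5 and 50.2 with TGF-β. In Col1a1-miR-29b libraries it was 31.3, 31.8 and 27.3 without and 51.0, 47.7 and 51.0 with TGF-β, and in CMV-miR-29b libraries 24.7, 28.1 and 24.5 without and 50.1, 45.8 and 46.5 with it. Every treated library lay above every untreated one. The log2 fold change was 0.98 ± 0.087 (SE) in empty vector cells (edgeR adjusted p = 2.41e-06), 0.73 with Col1a1-miR-29b (edgeR adjusted p = 6.57e-05) and 0.88 with CMV-miR-29b (edgeR adjusted p = 8.14e-06). The relatives Gadd45a and Gadd45b, with log2 fold changes of 0.010 and 0.074 in empty vector cells, did not pass the test.

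Cdkn2b (p15INK4b), an inhibitor of Cdk4 and Cdk6, rose in empty vector cells from 23.4, 20.8 and 18.5 CPM to 32.9, 23.7 and 31.4. The treated library labelled d was close to the untreated ones, but the groups did not overlap. The log2 fold change was 0.49 ± 0.12 (edgeR adjusted p = 0.0264). Myc, a transcription factor that promotes growth, also rose, from 61.8, 45.4 and 53.1 CPM to 82.4, 61.1 and 75.5, with the treated library d inside the untreated range. Its log2 fold change was 0.45 ± 0.10 (edgeR adjusted p = 0.0162). Both calls were lost without untreated library d or e, without treated library c or e, and with the groups compared alone, over a range of 0.39 to 0.61 for Cdkn2b and 0.34 to 0.56 for Myc. With Col1a1-miR-29b the change of Cdkn2b was 0.39 and that of Myc 0.26, and with CMV-miR-29b 0.28 and 0.23, none past the threshold.

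The other changes in empty vector cells were smaller. Cdc20, the activator of the anaphase-promoting complex (APC/C), and Mad1l1, which recruits the spindle checkpoint to kinetochores, both rose by 0.22 (edgeR adjusted p = 0.0361 and 0.0349). Of the 7 calls these were kept in the fewest alternatives: both were lost under total-count scaling, with no filter, in both limma fits and without the unlettered libraries, among others. E2f1, a transcription factor of the G1/S step, fell by 0.18 (edgeR adjusted p = 0.0272), from 112, 113 and 113 CPM to 105, 101 and 91.6. Anapc13, a small APC/C subunit, fell by 0.37 (edgeR adjusted p = 0.0318). Its gene shares 239 bases with Cep63 on the opposite strand, and whether the counting used strand is not given in the sources used here. Both falls were lost with a block by replicate letter, with the groups compared alone, and without untreated library c or e or treated library e. E2f1 was also lost without untreated library d, and Anapc13 without treated library c and with length and GC offsets. No cyclin or CDK passed the test: Ccnd1 had a log2 fold change of -0.18, Ccne1 -0.18, Ccnb1 0.085, Cdk1 -0.17 and Cdk4 0.056. Neither did any of the 16 origin licensing genes, among them Mcm2 at -0.019, Mcm5 at 0.024, Cdc6 at -0.048 and Cdc45 at -0.008, nor any of the 29 polymerase and lagging-strand genes. Without the treated library d, 14 members changed, and those gained were Ccne1, Espl1, Lig1, Prim1, Pttg1 and Rfc5, lower, and Stag1 and Wee1, higher. The share of all genes called without that library is not given here, so whether members gained more calls than other genes was not tested.

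With Col1a1-miR-29b, 2 of 136 members rose with TGF-β and 0 fell, where 3.0% of all genes rose and 1.32% fell (2 rose and 2 fell when scaled by total counts). Besides Gadd45g, this was Bub3, a spindle checkpoint protein, which went from 102, 105 and 101 CPM to 131, 115 and 125 with no overlap (log2 fold change 0.27, edgeR adjusted p = 0.00404). In empty vector cells Bub3 was at 116, 111 and 113 CPM and at 121, 113 and 110.3 with TGF-β. Untreated Col1a1-miR-29b libraries lay below all of these, while the treated ones ran from within their range to above it. With CMV-miR-29b, Gadd45g was the 1 member that rose and 0 fell, where 3.08% of all genes rose and 1.87% fell. Scaled by total counts 1 rose and 1 fell, and with length and GC offsets 1 rose and 2 fell. Whether the response to TGF-β differed between vectors was tested directly, and 0% of all genes and 0 of 136 members passed edgeR's test for either miR-29b vector against the empty one. The smallest unadjusted edgeR p among members was that of Bub3 for Col1a1-miR-29b (0.00259, adjusted p = 0.921). DESeq2 also called 0 members. The smaller number of calls with the miR-29b vectors is therefore not shown to differ.

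**Figure D1:**
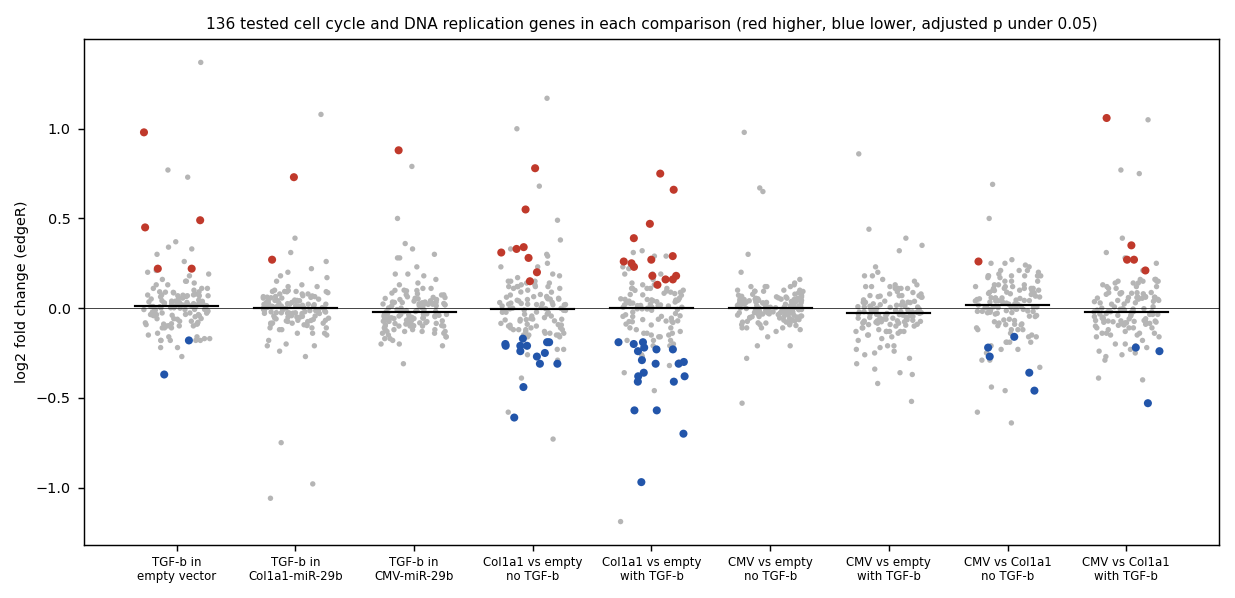
Each point is 1 of the 136 tested members, placed by its log2 fold change (vertical axis) in each of 9 comparisons (horizontal axis), with black bars at the member medians. Coloured points passed the edgeR test; they are most numerous for Col1a1-miR-29b against empty vector, with 22 without TGF-β and 34 with it, and absent for CMV-miR-29b against empty vector.

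The largest set of differences was between Col1a1-miR-29b and empty vector cells. Without TGF-β, 8 of 136 members were higher and 14 lower with Col1a1-miR-29b, where 2.57% of all genes were higher and 3.70% lower. With TGF-β, 14 were higher and 20 lower, where 5.31% and 7.63% of all genes were. These genes are well expressed, and well expressed genes were called more often: at 50 CPM or more on average, 14.1% of all genes and 16.8% of the 101 members were called without TGF-β, and 27.4% and 26.7% with it. The members' share was near that of other genes at their level. The median member was at -0.003 without TGF-β and 0.002 with it, beside 0.018 and 0.019 for the median gene.

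Most of the members called without TGF-β were also called with it, in libraries that the states do not share. Both comparisons came from the same fit, with an estimate of the spread shared by all groups. Col1a1-miR-29b libraries of both states also had a like trend with transcript length, given below. The overlap over all genes is not given here. Of the 22 called without TGF-β, 21 were called with it, 95.5% of the first list and 61.8% of the second, all 21 in the same direction. Over the 136 members, 105 had log2 fold changes of the same sign in both states, and the changes had a Pearson correlation of 0.40 and a Spearman correlation of 0.68, given as a description across genes. The replication nuclease Fen1, whose replicates lay far apart, was the point farthest from the origin, at 1.17 and -1.19, and did not pass the test.

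**Figure D2:**
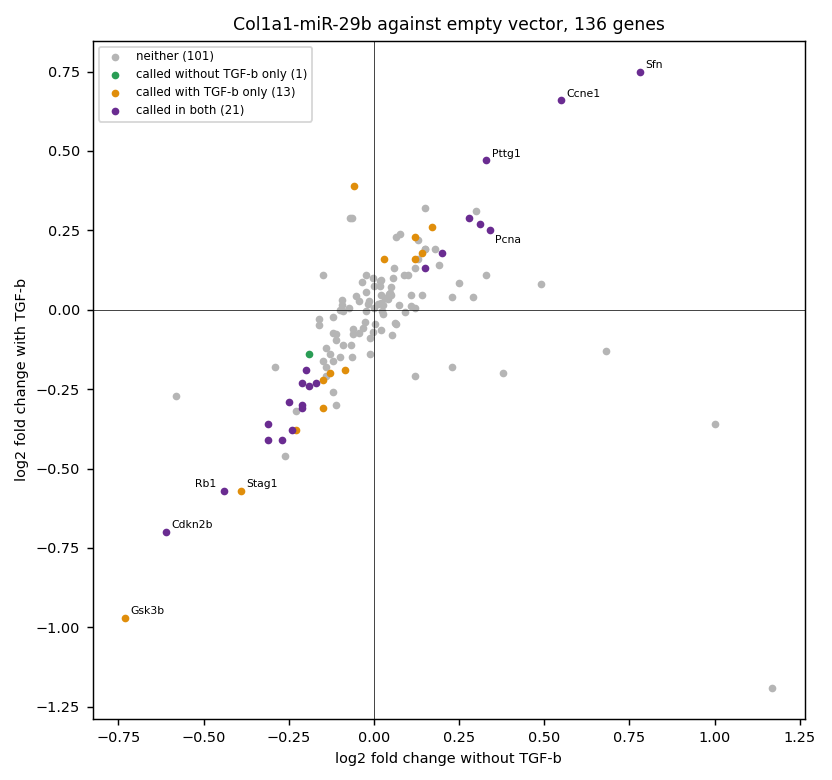
Each point is 1 of 136 members, with its log2 fold change for Col1a1-miR-29b against empty vector without TGF-β on the horizontal axis and with TGF-β on the vertical axis. Libraries differ between the states, but the fit is the same. The 21 members called in both lie in the same direction, from Cdkn2b and Rb1 at the lower left to Ccne1 and Sfn at the upper right.

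Among genes of the G1/S step, cyclin E1 was higher, and Rb1 and the Cdk4 and Cdk6 inhibitor Cdkn2b were lower. Ccne1, which activates Cdk2 for entry into S phase, was at 48.4, 54.8 and 55.6 CPM in empty vector libraries and at 75.9, 78.8 and 78.3 with Col1a1-miR-29b. With TGF-β it was at 41.5, 55.6 and 43.2 against 74.3, 72.2 and 75.7. The groups stood well apart in both states, with log2 fold changes of 0.55 ± 0.10 (edgeR adjusted p = 0.00751) and 0.66 ± 0.10 (edgeR adjusted p = 0.00114), a 1.58-fold difference in the latter. It was the 1 of 12 tested cyclins and CDKs that was called. At 50 CPM or more, 14.1% of all genes were called without TGF-β and 27.4% with it. In log2 fold changes without and with TGF-β, Ccnd1 was at 0.064 and 0.23, Ccna2 at -0.090 and -0.11 and Ccnb1 at 0.065 and -0.046. Cdk1 was at 0.15 and 0.32 and Cdk4 at 0.020 and -0.064.

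Rb1, the retinoblastoma protein, which holds E2F in check, was at 44.9, 49.9 and 41.6 CPM in empty vector libraries and at 33.0, 32.7 and 34.4 with Col1a1-miR-29b. With TGF-β it was at 48.2, 41.9 and 49.3 against 30.3, 31.3 and 32.4. No Col1a1-miR-29b library reached any empty vector library, and the log2 fold changes were -0.44 ± 0.076 (edgeR adjusted p = 0.00507) and -0.57 ± 0.076 (edgeR adjusted p = 0.000582). The relative Rbl1 (p107) was also lower, by -0.20 and -0.19. Lpar6, which lies within Rb1 on the opposite strand over 5400 bases, was higher with Col1a1-miR-29b, with log2 fold changes of 0.69 and 0.73. In all, 8 of the 41 members called in any comparison overlap another gene averaging at least 1 CPM, beside 38 of all 141 members. These 8, each overlapped on the opposite strand, are Anapc13, Atr, Bub3, Cdc20, Cdc25b, Rb1, Rbl1 and Rnaseh2c.

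Cdkn2b, raised by TGF-β in empty vector cells, was lower with Col1a1-miR-29b at 14.9, 13.8 and 12.5 CPM without TGF-β and 17.8, 17.6 and 18.8 with it. The highest of these 6 libraries was near the lowest untreated empty vector library, at 18.5. The log2 fold changes against empty vector were -0.61 ± 0.12 (edgeR adjusted p = 0.0116) and -0.70 ± 0.12 (edgeR adjusted p = 0.00229). Among the 5 tested CDK inhibitors it was the one called. Cdkn1b (p27) was at -0.11 and -0.30, Cdkn2a at -0.15 and -0.16, and Cdkn2c at 0.33 and 0.11. Without the treated empty vector library d, Cdkn2a also passed with TGF-β, at -0.26.

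Other regulators of transcription were called in 1 or both states. Crebbp, a histone acetyltransferase, was lower by -0.21 and -0.30. With TGF-β, the deacetylase Hdac1 was higher by 0.26 and E2f1 by 0.16, while Gsk3b, a kinase that marks cyclin D1 and Myc for breakdown, was lower by -0.97 ± 0.24 (edgeR adjusted p = 0.0161). Gsk3b was at 135, 71.6 and 85.7 CPM in treated empty vector libraries and at 51.2, 49.5 and 49.0 with Col1a1-miR-29b, without overlap. Its untreated empty vector libraries were at 55.1, 102 and 105, so its spread between replicates was wide, and its 42.4, 53.5 and 62.7 with Col1a1-miR-29b overlapped them.

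**Figure D3:**
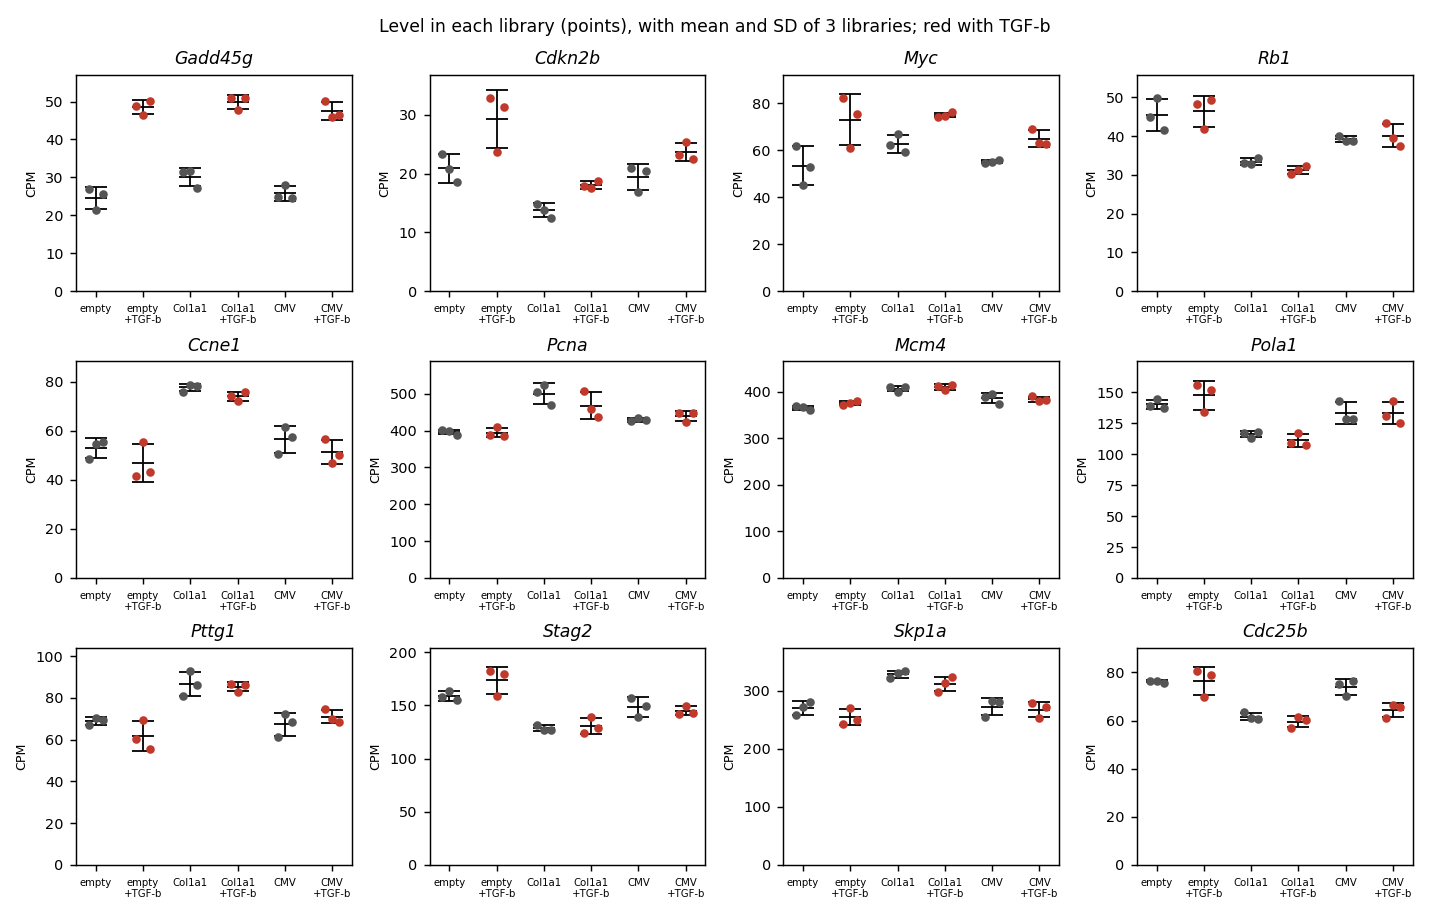
The members are shown with CPM on the vertical axis, starting at 0, and the 6 groups on the horizontal axis; points are libraries, bars are the mean and SD of 3, and red marks TGF-β. Gadd45g differs with TGF-β in all 3 vectors, whereas the members from Rb1 to Cdc25b differ between Col1a1-miR-29b and empty vector; with TGF-β, Cdc25b in CMV-miR-29b libraries, at 61.2 to 66.5 CPM, lies below the empty vector libraries.

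Of the 29 polymerase, primase and lagging-strand genes, 2 were higher and 1 lower without TGF-β, and 5 were higher and 1 lower with it, with medians of -0.001 and 0.036. Over all genes 2.57% were higher and 3.70% lower without TGF-β, and 5.31% and 7.63% with it. At 50 CPM or more, 14.1% and 27.4% of genes were called in either direction. Pcna, the sliding clamp, was at 400.5, 399.7 and 389 CPM in empty vector libraries and at 506, 525 and 470.3 with Col1a1-miR-29b, and with TGF-β at 388, 409 and 386 against 507, 460.1 and 437. All Col1a1-miR-29b libraries were above all empty vector libraries. The log2 fold changes were 0.34 ± 0.051 (edgeR adjusted p = 0.00300) and 0.25 ± 0.051 (edgeR adjusted p = 0.00572). Pole3, a histone-fold subunit of polymerase ε, was higher by 0.31 and 0.27, and with TGF-β the primase Prim1 (0.18), the single-strand binding protein Rpa2 (0.16) and Rnaseh2c, a subunit of RNase H2, (0.39) were too. Rnaseh2c shares 426 bases with Kat5 on the opposite strand, which was lower by -0.37 in the same comparison.

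Pola1, which begins each new DNA strand with primase, was at 139, 144 and 137 CPM in empty vector libraries and at 117, 113 and 118 with Col1a1-miR-29b. With TGF-β it was at 156, 134 and 152 against 109, 117 and 107, again without overlap. The log2 fold changes were -0.27 ± 0.064 (edgeR adjusted p = 0.0236) and -0.41 ± 0.064 (edgeR adjusted p = 0.00119). Of the 16 origin licensing genes, Mcm4, a subunit of the replicative helicase, was higher by 0.15 and 0.13, a change of about 10% that stood out because its replicates were close: 369.8, 366 and 360.5 CPM against 409.5, 399.8 and 410.4 without TGF-β. Orc3, of the origin recognition complex, was lower with TGF-β by -0.19. Mcm2, Mcm5, Cdc6 and Cdc45 were at -0.023, 0.050, -0.022 and 0.022 without TGF-β and at 0.056, 0.046, 0.11 and 0.095 with it, none past the threshold.

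Cohesin, the ring that holds sister chromatids together, was lower with Col1a1-miR-29b in most of its subunits, while securin was higher. Of 7 tested genes of this group, 1 was higher and 3 lower without TGF-β, and 2 were higher and 4 lower with it, where 3.70% and 7.63% of all genes were lower and 14.1% and 27.4% of genes at 50 CPM or more were called. Stag2 was at 158, 164 and 155 CPM against 132, 127 and 127, and with TGF-β at 182, 159 and 180.0 against 124, 139 and 129. Its log2 fold changes were -0.31 ± 0.058 (edgeR adjusted p = 0.00816) and -0.41 ± 0.058 (edgeR adjusted p = 0.000698). Rad21 (-0.19 and -0.24) and Smc3 (-0.21 and -0.23) were lower in both states and Stag1 with TGF-β (-0.57), while Smc1a was at -0.061 and -0.075 and did not pass the test.

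Pttg1, the securin that restrains separase, was at 66.9, 70.5 and 69.4 CPM against 81.0, 92.6 and 86.1 with Col1a1-miR-29b. With TGF-β it was at 60.4, 69.3 and 55.5 against 86.7, 82.9 and 86.3, and in neither state did the groups overlap. The log2 fold changes were 0.33 ± 0.077 (edgeR adjusted p = 0.0223) and 0.47 ± 0.077 (edgeR adjusted p = 0.00165). Separase itself, Espl1, was higher with TGF-β by 0.23.

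The 2 CDC25 phosphatases that passed the test, which remove inhibitory phosphates from CDKs, differed in direction. Cdc25a, of the G1/S step, was higher by 0.20 and 0.18. Cdc25b, of entry into mitosis, was lower: 76.6, 76.6 and 75.8 CPM against 63.4, 60.9 and 60.7, and with TGF-β 80.4, 69.6 and 78.9 against 57.0, 61.4 and 60.3. Its log2 fold changes were -0.31 ± 0.057 (edgeR adjusted p = 0.00751) and -0.36 ± 0.057 (edgeR adjusted p = 0.00129). The mitotic kinase Plk1 was at -0.12 and -0.16 and did not pass. Without the treated empty vector library d it passed with TGF-β, at -0.23.

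The spindle checkpoint kinase Bub1b was lower in both states, by -0.25 and -0.29, and Mad1l1 with TGF-β by -0.31, while Bub1 was at -0.018 and 0.018. In the ubiquitin ligases that destroy cell cycle proteins, Skp1a, the adaptor of the SCF complex, was higher by 0.28 and 0.29, with 258, 272 and 281 CPM against 321, 330.4 and 333 without TGF-β. Of the APC/C subunits, Anapc1 and Anapc4 were lower in both states and Cdc27 with TGF-β, as was the SCF scaffold Cul1, while Anapc2, Anapc5, Anapc7, Cdc16 and Cdc23 did not pass the test in either. Anapc1 lost its call in both states with length and GC offsets. Of the damage response genes, Prkdc was lower by -0.24 and -0.38 and Atr with TGF-β by -0.38, while Chek1 was at -0.004 and -0.071 and Trp53 at 0.026 and 0.014. Among 14-3-3 proteins, Sfn, which retains mitotic CDKs in the cytoplasm, was higher by 0.78 and 0.75 at a low level of 2.45 to 3.20 CPM in untreated empty vector libraries and 4.35 to 5.47 with Col1a1-miR-29b, and Ywhaz was lower by -0.19 without TGF-β.

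**Figure D4:**
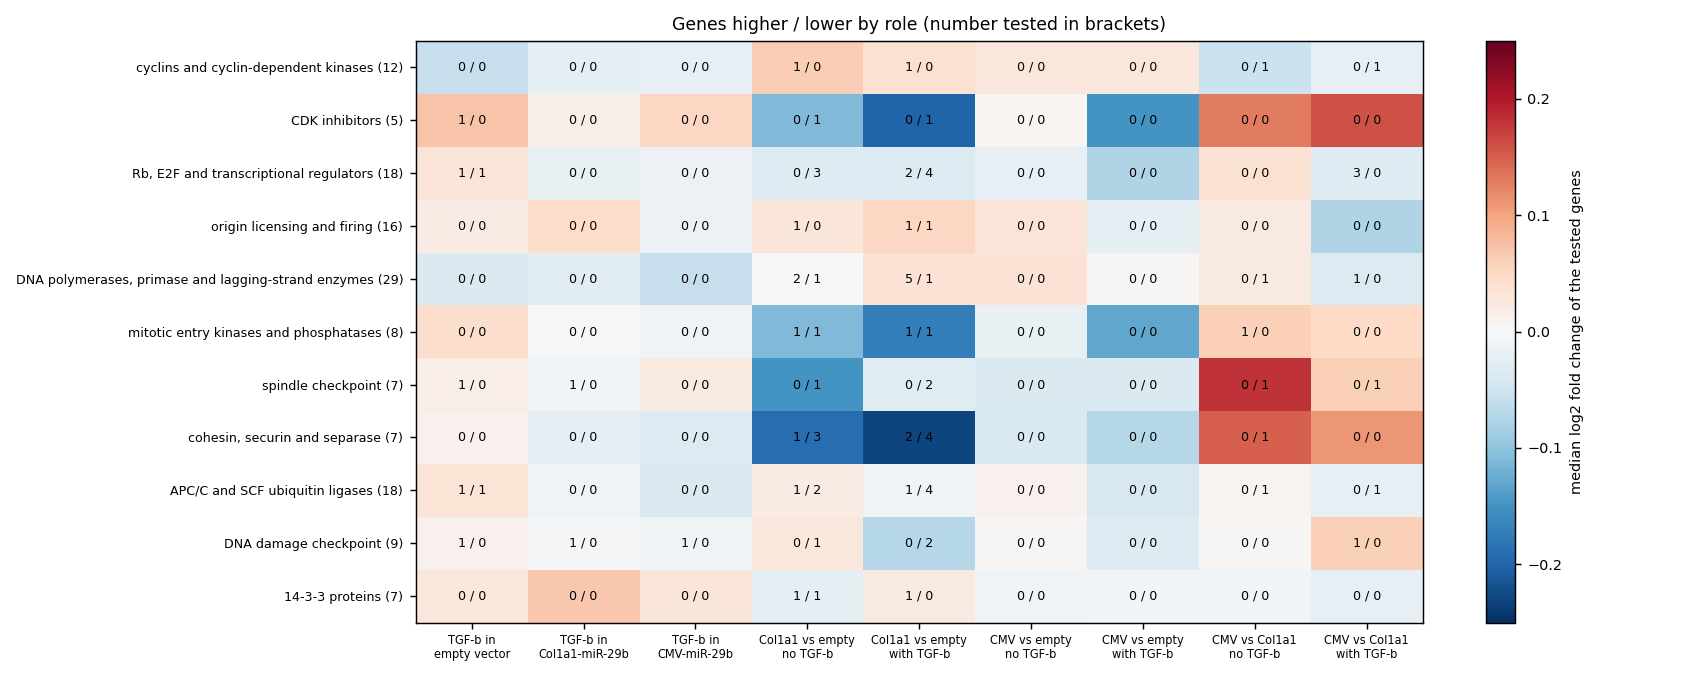
Rows are 11 roles with the number of tested genes and columns are 9 comparisons; each cell gives the number of genes higher and lower by the edgeR test, and its colour the median log2 fold change from blue (lower) to red (higher). The cohesin row reaches a median of -0.23 for Col1a1-miR-29b against empty vector with TGF-β, and both CMV-miR-29b against empty vector columns hold no call.

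Transcript length moved with these results. Length was that of the GENCODE transcript with the longest coding sequence. The 8 members higher with Col1a1-miR-29b without TGF-β had a median length of 1779 bases and the 14 lower ones 4753, and with TGF-β these were 1809 bases for 14 and 4306 for 20. All genes averaging 10 CPM or more showed the same order, at 2669 and 4665 bases without TGF-β and 2318 and 4744 with it. Of the 29 members of 4000 bases or more, 0 were higher and 8 lower without TGF-β, and 1 was higher and 10 lower with it; of the 42 under 2000 bases, 5 and 8 were higher and 1 and 2 lower. Within libraries, the slope of log2 level on length, per doubling of length, was -0.057 to -0.018 in Col1a1-miR-29b libraries and -0.046 to -0.026 with TGF-β, against -0.003 to 0.033 and 0.022 to 0.062 in empty vector libraries, and -0.034 to 0.026 over the 6 CMV-miR-29b libraries.

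**Figure D5:**
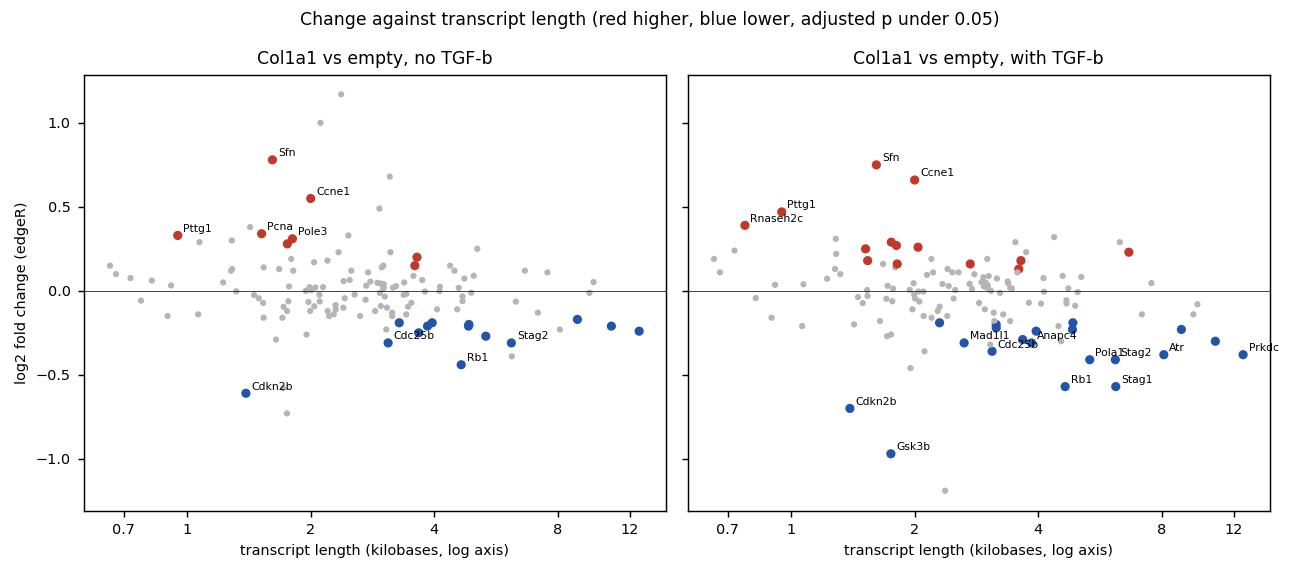
Log2 fold change for Col1a1-miR-29b against empty vector (vertical axis) is plotted against transcript length in kilobases (horizontal log axis) for the 136 tested members, without TGF-β at left and with it at right. Members that were higher, in red, had a median length of 1779 and 1809 bases, and those lower, in blue, 4753 and 4306.

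With offsets that remove the trend of each library with length and GC content, 19 members were called without TGF-β, 17 of them from the first list, and 28 with TGF-β, 24 of them from the first list. Those no longer called without TGF-β were Anapc1, Crebbp, Prkdc, Pttg1 and Rbl1, and with it Anapc1, Atr, Crebbp, E2f1, Prim1, Prkdc, Rbl1, Rnaseh2c, Rpa2 and Smc3. Ccne1, Rb1, Cdkn2b, Pcna, Pola1, Stag2, Cdc25b, Bub1b, Skp1a and Sfn were called in both states with the offsets too. With a block by replicate letter added, on the 16 lettered libraries, only Rb1 and Pcna of these were called without TGF-β. Pola1, Stag2 and Sfn then lost their calls with TGF-β too, and the others kept theirs. Scaled by total counts, 11 members were higher and 12 lower without TGF-β, and 20 and 19 with it, so the balance of directions depended on the scaling. Leaving out 1 library changed the count with TGF-β from 34 to between 23, without Col1a1-miR-29b library c, and 46, without empty vector library d. The shares of all genes called in these other fits are not given here. Plasmids were given at equal molar amounts, so that more DNA by mass was used for Col1a1-miR-29b than for CMV-miR-29b, and the mass of empty vector is not given in the sources used here. DNA mass and the miR-29b plasmid cannot be told apart.

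CMV-miR-29b against empty vector gave no member past the threshold in edgeR, without TGF-β (0.00473% of all genes called) or with it (0.00945%). Limma on log2 FPKM called 0. DESeq2 called 1 without TGF-β, Ccna2, the S and G2 phase cyclin with a seed match, and 2 with it, Stag2 and Cdc25b, all lower. The shares of all genes above are edgeR's, and those called by DESeq2 are not given here. Ccna2 was at 276, 281 and 263 CPM in empty vector libraries and at 230.4, 225 and 219 with CMV-miR-29b, without overlap, and edgeR gave a log2 fold change of -0.28 ± 0.060 with an adjusted p of 0.379. For Stag2 and Cdc25b with TGF-β, edgeR gave -0.26 and -0.25 with adjusted p-values of 0.137 and 0.151, and without the empty vector library d both passed, at -0.33 and -0.31. Ccne1 was at 0.093 and 0.13, Rb1 at -0.21 and -0.21 and Pcna at 0.12 and 0.16, none past the threshold.

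Directly compared with Col1a1-miR-29b, CMV-miR-29b cells had 1 member higher and 5 lower without TGF-β, where 1.0% of all genes were higher and 0.803% lower. With length and GC offsets 4 were higher and 3 lower, and with DESeq2's size factors in edgeR 2 and 5. Cdc25b was higher by 0.26, and Ccne1 (-0.46), Pttg1 (-0.36), Skp1a (-0.27), Pcna (-0.22) and Mad2l1 (-0.16) were lower. With TGF-β, 5 members were higher and 3 lower, where 1.02% and 0.912% of all genes were. Scaled by total counts 6 were higher and 2 lower, and with length and GC offsets 2 and 2. Gsk3b was higher by 1.06, Rb1 by 0.35 (edgeR adjusted p = 0.0321), Pola1 and Prkdc by 0.27 and Crebbp by 0.21, while Ccne1 (-0.53, edgeR adjusted p = 0.0210), Bub3 (-0.24) and Skp1a (-0.22) were lower. Ccne1 was at 50.4, 61.6 and 57.4 CPM with CMV-miR-29b and at 56.5, 46.9 and 50.3 with TGF-β, below all Col1a1-miR-29b libraries. These comparisons share the Col1a1-miR-29b libraries with those against empty vector. Leaving out any 1 of the 6 libraries compared with TGF-β brought the count to 0 or 1, and of the 6 compared without it to between 0 and 2, except for CMV-miR-29b library d.

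Summed over all 141 members, the level was 18678 ± 77.7 CPM (SD, n = 3) in empty vector libraries, 18841 ± 168 with TGF-β, 18875 ± 77.5 and 18731 ± 228 with Col1a1-miR-29b without and with TGF-β, and 18789 ± 169 and 18585 ± 118 with CMV-miR-29b. The 27 members that peak at G1/S summed to 4839 to 4894 CPM in untreated empty vector libraries and 5073 to 5279 with Col1a1-miR-29b, and to 4742 to 5032 and 5053 to 5116 with TGF-β, with no overlap in either state. The treated empty vector library d was the highest of its group at 5032 CPM, and untreated CMV-miR-29b libraries, at 5029 to 5083, were also above the untreated empty vector libraries. Highly expressed genes weigh most in such a sum. This list holds Pcna and Mcm4, called on their own, and Fen1, at 159.8 to 224 CPM in 5 libraries and 43.4 to 61.1 in 13. Mcm2, Mcm5, Cdc6 and Cdc45, also on it, did not pass the test. The 15 that peak at G2/M summed to 1795 to 1871 and 1843 to 1852 CPM without TGF-β, which overlapped, and to 1769 to 1827 and 1798 to 1824 with it. In counts of calls, 4 of 27 G1/S members were higher and 1 lower without TGF-β and 7 and 1 with it, while 1 of 15 G2/M members was higher and 2 lower without it and 2 and 2 with it. Over all genes 2.57% were higher and 3.70% lower without TGF-β and 5.31% and 7.63% with it, and of genes at 50 CPM or more 14.1% and 27.4% were called in either direction.

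Outside the 2 pathways, 42 further proliferation genes were examined. With Col1a1-miR-29b against empty vector, 2 were higher and 3 lower without TGF-β, and 3 were higher and 13 lower with it. These are 11.9% and 38.1% of the list, beside 14.1% and 27.4% of all genes at 50 CPM or more. Lower calls were more frequent among long transcripts. With TGF-β, of 3250 genes of 4000 bases or more that averaged at least 10 CPM, 124 were higher and 899 lower. The transcript lengths of this list, and its calls with length and GC offsets, are not given here. Rrm2, a subunit of the ribonucleotide reductase that supplies DNA precursors, was higher in both states (0.21 and 0.25). Top2a, the topoisomerase that untangles chromosomes (-0.28 in both), the mitotic motor Kif11 (-0.15 and -0.22) and the cytokinesis protein Anln (-0.27 and -0.35) were lower in both, and the centromere protein Cenpe (-0.27) with TGF-β. The antigen gene Mki67, a common label of dividing cells, was at -0.16 and -0.14 with edgeR adjusted p-values of 0.0507 and 0.0547. With TGF-β in empty vector cells, 1 of the 42 was higher, Cenpe by 0.19, and 0 were lower.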

How the data were processed

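Poly(A) RNA of 18 libraries, 3 in each of 6 groups, was sequenced. The authors trimmed reads with cutadapt, mapped them with HISAT2 and assembled them with StringTie, and deposited a whole-number count and an FPKM value per gene and library. The labels name the build mm9, but the coordinates are those of GRCm38 (identical to GENCODE M21 for 117 of the 141 members). How counts were taken is not given in the sources used here: 33.8% to 36.7% of counts from 1 to 40 were multiples of 4, where 25% would be even. For 1 library in each Col1a1-miR-29b group the column letter is found in no title, so its counts were used without a letter and 2 FPKM columns were not used.

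The count test was edgeR 4.0.16 (R 4.3.3), with low counts removed by filterByExpr (21161 genes kept), TMM scaling, 1 mean per group, quasi-likelihood F tests and Benjamini-Hochberg adjustment over all genes, threshold 0.05. CPM values are TMM-scaled. SE are the log2 fold change over the square root of F. The paper states that experiments were repeated 3 times for each group, but the labels do not say that libraries are separate cultures. The p-values therefore measure only the spread between libraries. Replicates differed by more than counting error (mean chi-square per gene 37.0 to 58.5). No replicate block was used in the main fit, because the paper's methods name DESeq2 with default settings and no block. Same-letter libraries did not deviate together (mean correlation 0.015 over 36 pairs, -0.008 over 70 others). The members and gene lists were chosen with earlier results of these data known. In each comparison the text names up to 12 members per direction past the threshold with a mean CPM of at least 1, a list of anchor genes, and called genes of the outside list. Alternatives used DESeq2 1.42.0 and limma 3.58.1 on log2(FPKM + 1) and log2(FPKM + 0.1), other scalings and filters, groups alone, robust dispersions, counts divided by 4, each library left out, and, chosen after seeing the data, offsets for length and GC content.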

Additional observations from a re-analysis of the deposited data

How the results depend on the processing

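Counts of members called depended on the processing, while no called member reversed direction in any alternative. Shares of all genes are given in the text for the main edgeR fit only, so the counts below are not set against other genes. The block by replicate letter, on the 16 lettered libraries, gave 3, 1 and 1 members for TGF-β in empty vector, Col1a1-miR-29b and CMV-miR-29b cells, 2 and 21 for Col1a1-miR-29b against empty vector without and with TGF-β, and 0 and 0 for CMV-miR-29b against Col1a1-miR-29b. In the same order of comparisons, values moved by over 1.5 times are given. Without the unlettered libraries, TGF-β with Col1a1-miR-29b gave 1, Col1a1-miR-29b against empty vector without TGF-β 6, and CMV-miR-29b against Col1a1-miR-29b 1 and 0; limma on log2(FPKM + 1) gave 1, 2 for TGF-β with CMV-miR-29b, 9, 1 and 0, and on log2(FPKM + 0.1) 1, 2, 6, 0 and 0. With the groups compared alone there were 1 and 1 for TGF-β in empty vector and Col1a1-miR-29b cells, 21 for Col1a1-miR-29b against empty vector with TGF-β, and 0 and 1 for CMV-miR-29b against Col1a1-miR-29b. DESeq2 gave 5 and 3 for TGF-β with the miR-29b vectors, 1 and 2 for CMV-miR-29b against empty vector, and 17 and 19 against Col1a1-miR-29b. Total-count scaling gave 4 and 2, and counts divided by 4 gave 4 and 3, for TGF-β with the miR-29b vectors; at least 10 counts in every library gave 3 for CMV-miR-29b, and no filter 3 and 2 for CMV-miR-29b against Col1a1-miR-29b. Length and GC offsets gave 11 for TGF-β in empty vector cells, 3 in CMV-miR-29b cells and 4 for CMV-miR-29b against Col1a1-miR-29b with TGF-β; with the replicate block they gave 1 for TGF-β with Col1a1-miR-29b, 3 and 12 for Col1a1-miR-29b against empty vector, and 0 and 0 for CMV-miR-29b against Col1a1-miR-29b. The cause of these moves was not tested, except that the block and FPKM fits use 16 libraries. Leaving out 1 library gave 1 to 14, 2 to 3 and 1 to 4 members for TGF-β in the 3 vectors, 8 to 26 and 23 to 46 for Col1a1-miR-29b against empty vector, 0 and 0 to 2 for CMV-miR-29b against empty vector, 0 to 11 and 0 to 8 for CMV-miR-29b against Col1a1-miR-29b, and 0 for both differences in response. For TGF-β in empty vector cells, each of the 6 libraries compared moved the count by over 1.5 times (4, 2 and 1 without untreated c, d and e, and 2, 14 and 1 without treated c, d and e). For Col1a1-miR-29b against empty vector without TGF-β there were 9 without empty vector c or d, 8 without Col1a1-miR-29b d and 12 without its unlettered library. Members called in all alternatives and with each library left out were Gadd45g with TGF-β in each vector, Pcna and Rb1 for Col1a1-miR-29b without TGF-β, and 9 with it, Bub1b, Ccne1, Cdc25b, Cdkn2b, Hdac1, Mad1l1, Rad21, Rb1 and Skp1a. At 3 libraries a group, differences under about 1.1-fold passed only where replicates were very close, as for Mcm4.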

Other observations

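In 10 of the 136 tested members the coefficient of variation within groups exceeded 20%, and in several of them a few libraries stood apart regardless of group. Fen1, the flap nuclease of lagging-strand synthesis, was at 159.8 to 224 CPM in 5 libraries of 4 groups (2 of empty vector with TGF-β and 1 each of Col1a1-miR-29b, CMV-miR-29b and CMV-miR-29b with TGF-β) and at 43.4 to 61.1 in the other 13, which included all untreated empty vector libraries. Cdkn2d (p19INK4d), a CDK inhibitor, was at 3.56 to 7.11 CPM in 8 libraries and 17.7 to 27.9 in the other 10. Skp2, the substrate receptor of SCF for p27, was at 173 to 228 CPM in 5 libraries and at 79.7 to 98.7 in 13. Cdk2 was at 124 and 138 CPM in the CMV-miR-29b libraries labelled c, without and with TGF-β, and at 60.2 to 73.8 in the other 16, and E2f3 at 19.6 in the untreated CMV-miR-29b library c against 48.2 to 64.7 elsewhere. Of these 10 genes, 4 overlap another expressed gene (Fen1 with Tmem258 and Gm10143, Ccnd3 with Bysl, Cdk2 with Pmel, Cdc14b with 1810034E14Rik), in each case on the opposite strand. Of all 141 members, 38 overlap an expressed gene. The part of read assignment in these values was not tested. Gsk3b was the one of the 10 that passed the threshold in any comparison.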
